A study of Homo sapiens with 20 samples.

Results

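The metallothionein genes, the zinc-sensing transcription factor gene MTF1 and the zinc exporter gene SLC30A1 were followed across MDA-MB-231 cells, an established human triple-negative breast cancer line, treated with cisplatin (Cis), with the copper chelator ammonium tetrathiomolybdate (TM) or with both (Cis/TM). The set was defined by name as 10 genes, the metallothioneins MT1A, MT1B, MT1E, MT1F, MT1G, MT1M, MT1X and MT2A together with MTF1 and SLC30A1. Of these, 9 had a row assigned to their symbol alone and were analysed among 18417 genes, and MT1A had none and has no value here. RNA of 20 samples was hybridised to 20 Affymetrix Human Gene 1.0 ST arrays in 7 groups: Control cells without a stated time, Cis, TM and Cis/TM cells at 12 h, and the same 3 treatments at 24 h. Each group held 3 arrays, lettered A to C, except TM at 12 h, which held 2. Cisplatin was given at 36 µM and TM at 10 µM. Vehicle-treated cells are described for both times, but the labels of the controls carry none, so the same 3 Control arrays stood against both times. All arrays came from 1 cell line, and nothing says that the wells of a group were grown as separate cultures on separate days, so the p-values measure the spread between these samples, which may be technical.

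The array medians ran from 5.71 to 5.94 on the log2 scale and were not equal between groups. In Control they were 5.77, 5.76 and 5.71, and with Cis at 12 h 5.94, 5.88 and 5.87. The SD over genes ran from 2.01 to 2.18 over the 20 arrays and was 2.01, 2.01 and 2.03 in Control. Among genes known for mesenchymal-like basal breast lines, VIM lay between 11.05 and 11.33 and CD44 between 11.44 and 11.84. The luminal and epithelial markers ESR1 (3.81 to 4.23), PGR (3.40 to 4.16) and CDH1 (3.47 to 4.08) lay below the median of every array, while the other 6 markers of that kind did not. EPCAM (7.65 to 8.98), KRT8 (6.92 to 8.88) and KRT18 (7.73 to 8.77) lay above the medians of all arrays, and KRT19 (5.72 to 7.33), ERBB2 (5.57 to 6.42) and GATA3 (5.13 to 6.44) ranged across them. Because the intensities of each array were brought to a common scale by the normalization, fewer cells and less RNA per cell cannot be told apart in these values.

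Metallothioneins are small cysteine-rich proteins that bind zinc, copper and cadmium, and they are known to bind platinum as well. Their genes are switched on by MTF1, a zinc finger transcription factor that senses free zinc and binds metal response elements (MREs) in promoters. SLC30A1 encodes the zinc transporter ZnT1 of the plasma membrane, which carries zinc out of the cell and is another known target of MTF1. The metallothionein genes lie in a cluster on chromosome 16, where the 7 measured members ran from MT2A, which starts at 56608584, to MT1X, which ends at 56684196 (RefSeq, GRCh38.p14). MTF1 and SLC30A1 lie on chromosome 1. The coding sequences of the metallothioneins are close to each other, so signal of one gene may in part be that of another, and values for single members are uncertain to that degree.

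Promoter sequence of RefSeq (GRCh38.p14) was available for 5 of the 10 genes, MT1B, MT1X, MT2A, MTF1 and SLC30A1. The 250 bases before the annotated start were searched on both strands for the 7-base MRE core, TGCACNC or TGCGCNC, where N is any base. The promoters of MT1X and SLC30A1, which rose with Cis, and of MT2A, which held the most matches, are shown 5′ to 3′ on the strand of the gene, with the MRE core matches in capitals, those of the other strand appearing as GNGTGCA or GNGCGCA.
MT1X promoter, chr16:56682220-56682469, plus strand: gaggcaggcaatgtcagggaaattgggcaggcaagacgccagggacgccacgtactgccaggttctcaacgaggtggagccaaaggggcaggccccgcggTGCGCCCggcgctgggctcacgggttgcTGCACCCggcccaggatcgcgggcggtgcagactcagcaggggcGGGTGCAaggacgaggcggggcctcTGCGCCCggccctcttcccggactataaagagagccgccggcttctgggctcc
MT2A promoter, chr16:56608334-56608583, plus strand: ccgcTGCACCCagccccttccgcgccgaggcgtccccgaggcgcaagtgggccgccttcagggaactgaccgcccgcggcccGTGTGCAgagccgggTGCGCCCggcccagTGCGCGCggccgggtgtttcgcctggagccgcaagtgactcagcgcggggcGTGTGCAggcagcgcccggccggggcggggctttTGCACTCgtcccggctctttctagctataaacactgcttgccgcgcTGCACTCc
SLC30A1 promoter, chr1:211579162-211579411, minus strand: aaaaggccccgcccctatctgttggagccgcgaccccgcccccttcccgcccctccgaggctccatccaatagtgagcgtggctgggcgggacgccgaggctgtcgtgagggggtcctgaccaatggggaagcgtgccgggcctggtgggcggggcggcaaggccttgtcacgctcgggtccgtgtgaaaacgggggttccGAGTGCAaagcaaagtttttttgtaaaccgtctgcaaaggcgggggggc
MT2A held 7 matches, a number reached by 0.0313% of the 35116 promoters in the table, MT1X held 4 (reached by 0.37%) and MT1B held 3 (reached by 1.58%). The SLC30A1 window held 1 match, as did or exceeded 24.8% of all promoters, and that of MTF1 held 0. No matches overlapped each other. The AP-1 motif TGANTCA, searched in the same windows and present in 6.57% of all promoters, was found once in MT1B and once in MT2A and overlapped no MRE core match. A match describes these letters only, and binding of MTF1 was not measured.

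At 12 h, Cis raised MT1X, SLC30A1 and MTF1, and no member fell. MT1X rose 3.07-fold, SLC30A1 2.25-fold and MTF1 by 0.94 on the log2 scale. With TM alone only MTF1 among the members passed the test, and with Cis/TM the 3 genes that passed with Cis passed again. At 24 h MT1E had fallen with Cis and with Cis/TM, MT1G had fallen with Cis/TM, and the estimates of all 7 metallothioneins lay below 0 with each treatment, except that under 2 of 3 other scalings MT1M was above 0 with Cis and with TM. Here and below a gene was called when its limma p, adjusted by Benjamini-Hochberg over all 18417 genes, was under 0.05 and its fold change exceeded 1.5.

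**Figure D1:**
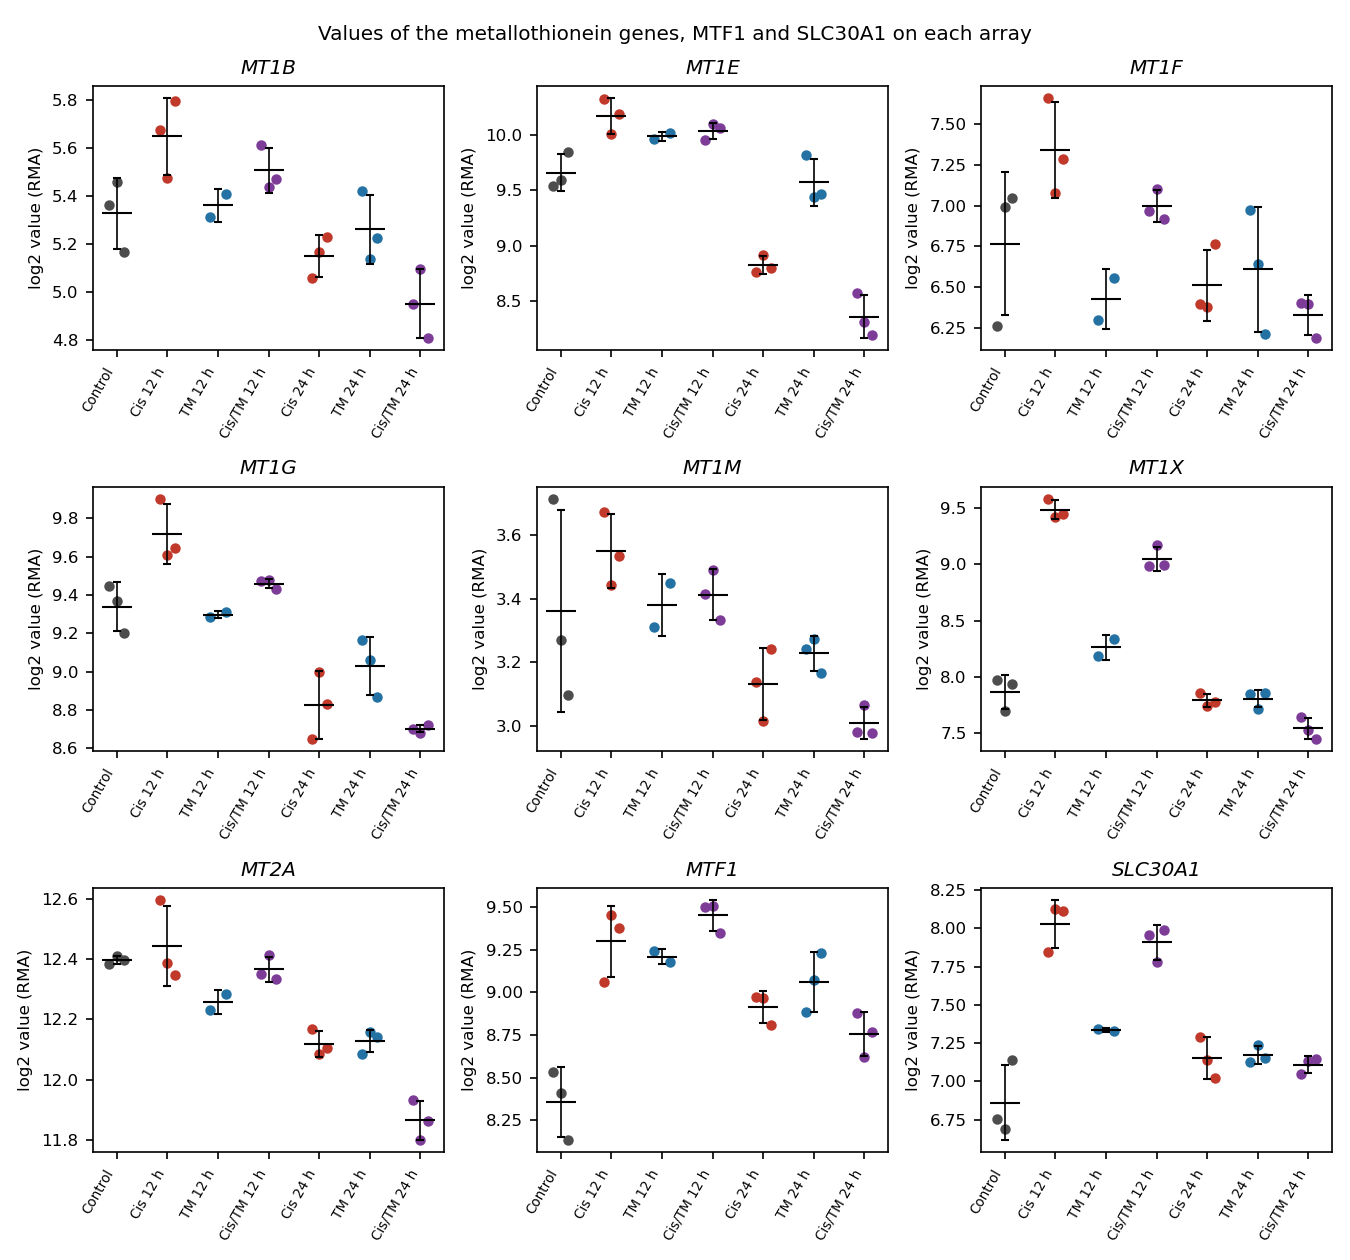
Log2 expression value (vertical axis) of each of the 9 members on each of the 20 arrays (points), by group (horizontal axis), with the group mean as a line. The MT1X points of Cis 12 h (9.42 to 9.58) and Cis/TM 12 h (8.99 to 9.17) stand above all other groups, and those of Cis/TM 24 h (7.45 to 7.64) lie lowest.

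MT1X, a broadly expressed metallothionein, had log2 values of 7.97, 7.70 and 7.93 on Control A, B and C and of 9.58, 9.42 and 9.45 on the Cis 12 h arrays. On the Cis/TM 12 h arrays it had 8.99, 9.17 and 8.99, and on the TM 12 h arrays 8.19 and 8.34. All arrays of the 3 treatments at 12 h thus lay above all controls, with Cis highest, Cis/TM next and TM lowest and no overlap between these groups. The difference from Control was 1.62 with Cis (SE 0.10, limma adjusted p = 3.03e-10), 1.19 with Cis/TM (SE 0.10, limma adjusted p = 1.53e-08) and 0.40 with TM (SE 0.11, limma adjusted p = 0.0128), the last being under the 1.5-fold limit. At 24 h MT1X had 7.86, 7.74 and 7.77 with Cis, 7.85, 7.72 and 7.86 with TM, and 7.64, 7.53 and 7.45 with Cis/TM. The Cis and TM arrays overlapped with Control, and the Cis/TM arrays lay below it without overlap, with a difference of -0.32 (SE 0.10, limma adjusted p = 0.027) that was under the 1.5-fold limit.

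SLC30A1 had log2 values of 6.75, 6.69 and 7.14 in Control, with Control C highest. It had 7.84, 8.12 and 8.11 with Cis at 12 h, 7.96, 7.78 and 7.99 with Cis/TM at 12 h and 7.34 and 7.33 with TM at 12 h. The Cis and Cis/TM arrays overlapped each other and stood above the TM arrays, which stood above all controls. The difference from Control was 1.17 with Cis (SE 0.12, limma adjusted p = 1.09e-07) and 1.05 with Cis/TM (SE 0.12, limma adjusted p = 5.44e-07), and with TM it was 0.48 (SE 0.13, limma adjusted p = 0.0121), which did not pass the fold limit with Control C and did without it (0.62). At 24 h the values were 7.29, 7.14 and 7.02 with Cis, 7.13, 7.24 and 7.15 with TM and 7.05, 7.13 and 7.14 with Cis/TM. These 3 groups overlapped one another, and none passed the test against Control, with differences of 0.29 (Cis), 0.31 (TM) and 0.25 (Cis/TM) and SE 0.12 each.

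MTF1, the metal sensor itself, had log2 values of 8.53, 8.41 and 8.13 in Control. At 12 h it had 9.06, 9.46 and 9.38 with Cis, 9.24 and 9.18 with TM and 9.50, 9.51 and 9.35 with Cis/TM. At 24 h it had 8.97, 8.97 and 8.81 with Cis, 8.88, 9.07 and 9.23 with TM and 8.88, 8.62 and 8.77 with Cis/TM. All treated arrays lay above the highest control, in contrast to the metallothioneins at 24 h. The rise over Control at 12 h was 0.94 with Cis (SE 0.13, limma adjusted p = 4.06e-06), 0.85 with TM (SE 0.14, limma adjusted p = 0.000224) and 1.09 with Cis/TM (SE 0.13, limma adjusted p = 7.5e-07). At 24 h the rise with TM was called at 0.71 (SE 0.13, limma adjusted p = 0.000597), whereas those with Cis (0.56, limma adjusted p = 0.00178) and Cis/TM (0.40, limma adjusted p = 0.0318) were under the fold limit. The Cis 24 h difference passed it without Control A (0.64) or without Cis 24 h C (0.61).

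MT1E, another isoform of the MT1 group, had log2 values of 9.54, 9.59 and 9.85 in Control and 10.33, 10.01 and 10.19 with Cis at 12 h. At 24 h it had 8.76, 8.91 and 8.80 with Cis, 9.82, 9.44 and 9.47 with TM and 8.58, 8.31 and 8.19 with Cis/TM. The Cis and Cis/TM arrays of 24 h lay below all controls and did not overlap each other, while the TM arrays overlapped with Control. MT1E fell by 0.84 with Cis (SE 0.13, limma adjusted p = 3.87e-05) and by 1.30, or 2.46-fold, with Cis/TM (SE 0.13, limma adjusted p = 1.1e-06). At 12 h its difference from Control was 0.52 with Cis (limma adjusted p = 0.0021), 0.38 with Cis/TM (limma adjusted p = 0.0185) and 0.33 with TM (limma adjusted p = 0.093), none past the fold limit. Without Control C the Cis difference was 0.61, and without Cis 12 h B it was 0.60, both called.

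MT1G had log2 values of 9.45, 9.37 and 9.20 in Control and of 8.70, 8.68 and 8.72 with Cis/TM at 24 h. It had 8.65, 8.998 and 8.83 with Cis at 24 h, also below all controls. The Cis/TM difference of -0.64 was called (SE 0.11, limma adjusted p = 0.000465), though not without Control A (-0.58, under the fold limit). The Cis difference of -0.51 (SE 0.11, limma adjusted p = 0.00108) was under the fold limit, and was called without Cis 24 h B (-0.60).

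The other MT1 genes gave smaller differences. MT1F ranged from 6.19 to 7.66 over the 20 arrays, with Control A at 6.26 and Control B and C at 6.99 and 7.04, so its controls alone spanned a wide range. Its Cis 12 h difference was 0.57 (SE 0.20, limma adjusted p = 0.0256), just under the fold limit, and it was called without Control B (0.69), Control C (0.71), Cis 12 h B (0.71) or Cis 12 h C (0.60). Without Control A, the MT1F differences of TM 12 h (-0.59) and Cis/TM 24 h (-0.69) were called as well. MT1B ranged from 4.81 to 5.80 and MT1M from 2.98 to 3.71, and neither was called against Control in any of the 6 comparisons. MT1M fell among the 25% of genes with the lowest means, which one alternative left out.

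**Figure D2:**
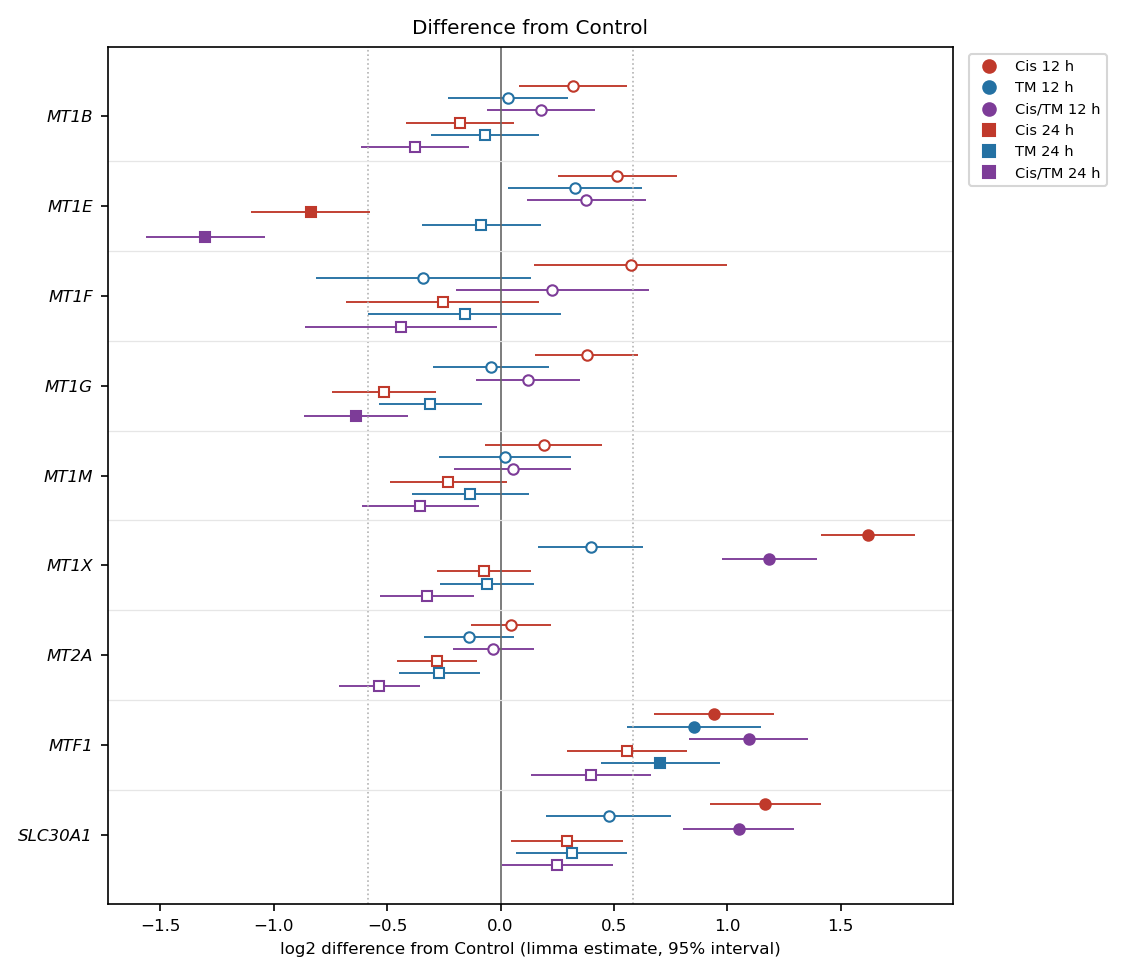
Log2 difference from Control (horizontal axis) of each member (vertical axis) for Cis, TM and Cis/TM at 12 h and at 24 h, with the limma estimate as a point, its 95% interval as a line, filled points for called differences and dotted lines at 1.5-fold. MT1X, SLC30A1 and MTF1 stand to the right with Cis and Cis/TM at 12 h, and all 7 metallothioneins lie left of 0 at 24 h, most of them uncalled, with MT1M right of 0 for Cis and TM under 2 other scalings.

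Counted over the members, 3 of 9 were called higher with Cis at 12 h and 0 lower, against 14.8% of all genes called higher and 10.8% called lower. With Cis/TM at 12 h 3 were called higher and 0 lower (all genes, 15.2% and 8.55%), and with TM at 12 h 1 and 0 (all genes, 8.99% and 3.11%). At 24 h 0 were called higher and 1 lower with Cis (all genes, 11.5% and 4.9%), 1 and 0 with TM (all genes, 5.16% and 2.55%) and 0 and 2 with Cis/TM (all genes, 4.54% and 2.48%). With each array centred on its median the shares of all genes called higher and lower were 11% and 16.7% with Cis, 12.3% and 12.8% with Cis/TM and 7.43% and 4.7% with TM at 12 h, and 8.73% and 7.38%, 4.04% and 2.9%, and 3.58% and 3.84% in the same order at 24 h. The median difference over the 7 metallothioneins was 0.38 with Cis, 0.18 with Cis/TM and 0.02 with TM at 12 h, which became 0.23, 0.07 and -0.04 under that centring. It was -0.26 with Cis, -0.13 with TM and -0.44 with Cis/TM at 24 h, or -0.35, -0.21 and -0.47 under the centring. The median over all genes lay between -0.0461 and -0.00222 in the 6 comparisons. These 6 comparisons share the 3 Control arrays, so a control that stands apart moves all of them. Groups did not overlap with Control in 7 of 9 members with Cis at 12 h and in 7 of 9 with Cis/TM at 24 h, where 47.4% and 31.4% of all genes did the same. The other comparisons with Control had fewer such members. The share of all genes is not given for these, so their counts are not read as a result.

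MT2A, the main metallothionein of many human cells, was represented by 3 rows of the array that did not move alike at 12 h. The row with the highest mean was used as the main value. Its mean over the 20 arrays was 12.22, and only 19 of the 18417 genes had a higher one. Whether so high a level limits the differences it can show was not tested. In this row MT2A had 12.39, 12.41 and 12.40 in Control and 12.60, 12.39 and 12.35 with Cis at 12 h. The Cis arrays overlapped with Control and differed by 0.05 (SE 0.09, limma adjusted p = 0.691). The other 2 rows had lower means, and there Cis at 12 h differed from Control by 0.51 (limma adjusted p = 9.1e-05) and 0.42 (limma adjusted p = 0.000643), both without overlap and both under the fold limit. Their Cis 12 h arrays lay between 11.77 and 11.98 and between 11.22 and 11.49, against 11.29 to 11.41 and 10.88 to 10.93 in Control. With Cis/TM at 12 h the main row differed by -0.03 (limma adjusted p = 0.786). The other rows there differed by 0.33 (limma adjusted p = 0.005) and 0.22 (limma adjusted p = 0.049). With TM at 12 h the differences were -0.14 in the main row and 0.13 and 0.08 in the others. None of these was called. With Cis/TM at 24 h the 3 rows lay below Control by 0.53 (limma adjusted p = 0.000241), 0.62 (limma adjusted p = 8.17e-05) and 0.62 (limma adjusted p = 9.76e-05), and the last 2 of these were called. 

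**Figure D3:**
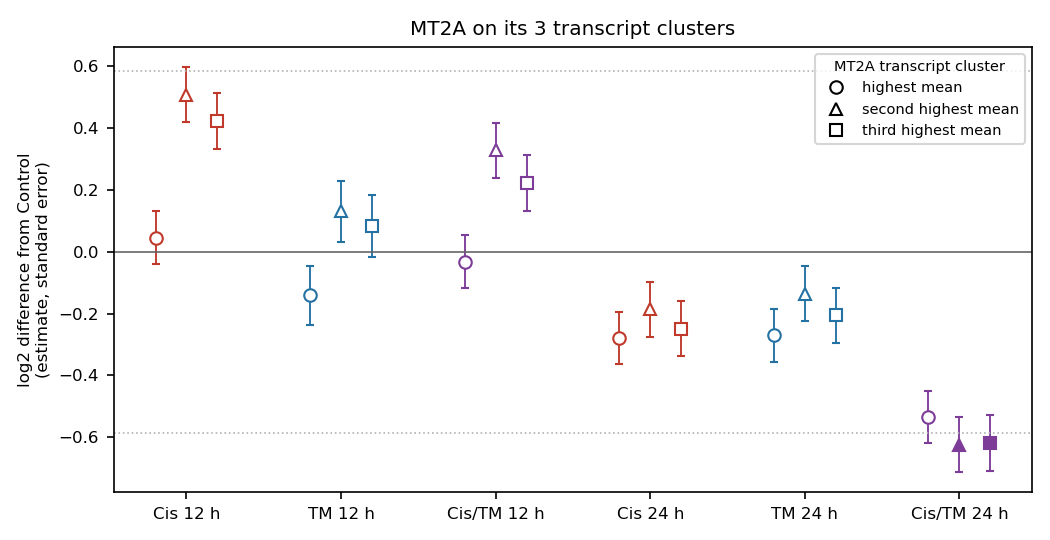
Log2 difference from Control (vertical axis) of the 3 transcript clusters assigned to MT2A for Cis, TM and Cis/TM at 12 h and at 24 h (horizontal axis). Points are limma estimates, with the standard error as a line, filled points for called differences and dotted lines at 1.5-fold. With Cis at 12 h the 2 rows of lower mean lie above 0 (0.51 and 0.42) and the row of highest mean lies at 0.05. All 3 are lowest with Cis/TM at 24 h.

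The direct comparison of Cis/TM with Cis asks whether adding TM altered the response to Cis. At 12 h no member was called, nor was any of the 18417 genes (0%), although 1732 genes, MT1X and MT1G among them, had an unadjusted limma p under 0.05. MT1X was lower with Cis/TM than with Cis by an estimate of -0.43 (95% interval -0.64 to -0.23, limma adjusted p = 0.28), and all 3 Cis/TM arrays lay under all 3 Cis arrays. For SLC30A1 the difference was -0.12 (95% interval -0.36 to 0.13) and for MTF1 0.15 (95% interval -0.11 to 0.42). At 24 h again no member was called, where 1.5% of all genes were. There 3 members had an unadjusted limma p under 0.05, as had 3230 of the 18417 genes. The MT1E difference of -0.46 (SE 0.13, limma adjusted p = 0.0453) was under the fold limit. MT2A differed by -0.25 in its main row (limma adjusted p = 0.102). Its other rows differed by -0.44 (limma adjusted p = 0.0134) and -0.37 (limma adjusted p = 0.0274), both under the fold limit.

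Cis and Cis/TM differed from TM alone in a few members. At 12 h Cis exceeded TM in MT1X by 1.22 (SE 0.11, limma adjusted p = 7.2e-08), in MT1F by 0.91 (SE 0.23, limma adjusted p = 0.00427) and in SLC30A1 by 0.69 (SE 0.13, limma adjusted p = 0.000396), 3 of 9 members beside 6.9% of all genes called higher (5.11% with each array centred on its median). The MT1F call was lost without TM 12 h A (0.78, limma adjusted p = 0.0718). Cis/TM exceeded TM at 12 h in MT1X by 0.79 (SE 0.11, limma adjusted p = 2.3e-05), 1 of 9 members beside 6.61% of all genes, and the SLC30A1 difference of 0.57 (SE 0.13, limma adjusted p = 0.00285) was called without Cis/TM 12 h B (0.64). MTF1 was not called between any pair of treatments at the same time. At 24 h MT1E was lower than with TM, by -0.75 with Cis (limma adjusted p = 0.000232, all genes lower 3.23%) and by -1.22 with Cis/TM (limma adjusted p = 2.5e-06, all genes lower 2.75%), and no other member was called.

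Between 12 h and 24 h, 5 of the 9 members fell with Cis and 6 with Cis/TM. With Cis, MT1X fell by 1.69 (SE 0.10, limma adjusted p = 4.67e-09), MT1E by 1.35, MT1G by 0.89, SLC30A1 by 0.88 and MT1F by 0.83, 5 of 9 members called lower beside 3.42% of all genes. With Cis/TM, MT1E fell by 1.68 (SE 0.13, limma adjusted p = 2.26e-08), MT1X by 1.51 (SE 0.10, limma adjusted p = 5.2e-09), SLC30A1 by 0.80, MT1G by 0.76, MTF1 by 0.69 and MT1F by 0.67, 6 of 9 members beside 8.07% of all genes (6.19% with each array centred on its median). MT2A was not called in its main row (-0.33 with Cis and -0.50 with Cis/TM), but its other 2 rows were called lower with Cis (-0.69 and -0.67) and with Cis/TM (-0.95 and -0.84). In both treatments all 9 members were lower at 24 h on every array than at 12 h on any, as 37% (Cis) and 45.4% (Cis/TM) of all genes were without overlap in either direction. With TM no member was called by limma, as only 1 of 18417 genes was (0.00543%), and 3 members had an unadjusted p under 0.05. Such a p was held by 1068 of all genes. MT1X then differed by -0.46 (95% interval -0.69 to -0.22, limma adjusted p = 0.495) and MT1E by -0.41 (95% interval -0.71 to -0.12, limma adjusted p = 0.774). The Cis/TM call of MT1F was lost under 3 other scalings (-0.58, -0.53 and -0.51) and without Cis/TM 12 h B (-0.61, limma adjusted p = 0.0654) or Cis/TM 24 h C (-0.60, limma adjusted p = 0.0747), and MT1B was called without Cis/TM 12 h B (-0.59) or Cis/TM 24 h B (-0.63). With no Control of stated time, change with treatment and change with time in culture cannot be told apart here.

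**Figure D4:**
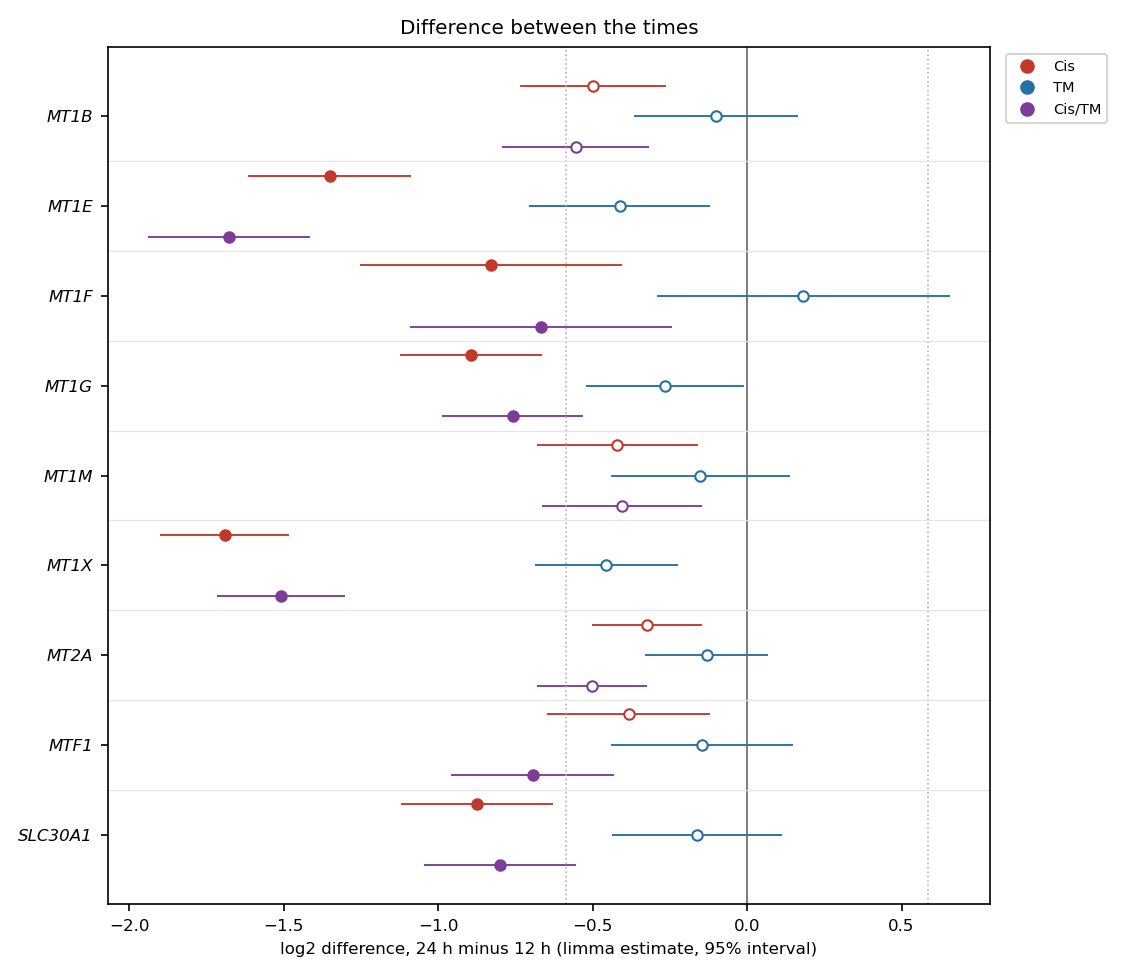
Log2 difference between 24 h and 12 h (horizontal axis) of each member (vertical axis) under Cis, TM and Cis/TM, with the limma estimate as a point, its 95% interval as a line, filled points for called differences and dotted lines at 1.5-fold. The Cis and Cis/TM estimates all lie below 0, most so for MT1X and MT1E, and no TM estimate was called.

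Whether Cis/TM equalled the sum of both single treatments was tested by taking the Control difference of Cis/TM and subtracting those of both single treatments, where a value below 0 means less than the sum on the log2 scale. At 12 h this was -0.83 for MT1X (SE 0.15, limma adjusted p = 0.00136), -0.70 for MTF1 (SE 0.19, limma adjusted p = 0.0195) and -0.59 for SLC30A1 (SE 0.18, limma adjusted p = 0.0325), 3 of 9 members called lower beside 6.87% of all genes (4.76% with each array centred on its median). At 24 h only MTF1 among the members was called, with -0.86 (SE 0.18, limma adjusted p = 0.00171), where 11.4% of all genes were called lower (7.87% with the centring). The MTF1 value of 12 h lost its call without TM 12 h A (-0.67), TM 12 h B (-0.73) or Cis/TM 12 h C (-0.65) and under median centring (-0.60), and that of SLC30A1 lost it under 3 other scalings (-0.49, -0.44 and -0.44) and without Control A (-0.54), Control B (-0.51), Cis 12 h B (-0.55), Cis 12 h C (-0.55), TM 12 h A (-0.59), TM 12 h B (-0.60) or Cis/TM 12 h B (-0.53). The MT1X value of 12 h and the MTF1 value of 24 h were called without any 1 array.

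Of the other metallothionein genes and pseudogenes, 8 of 14 listed were measured. None was called higher in the 6 comparisons with Control, where 4.54% to 15.2% of all genes were. With Cis at 12 h 4 of the 8, all higher, had an unadjusted limma p under 0.05. Of the 18417 genes, 9785 had such a p there, in either direction. MT1P3, a pseudogene, fell with Cis at 24 h by 0.59 (limma adjusted p = 0.00221), and MT1JP, another pseudogene, fell with Cis/TM at 24 h by 0.60 (limma adjusted p = 0.0418). Between 12 h and 24 h of Cis 5 of the 8 fell, beside 3.42% of all genes called lower. These were MT1P3 by 1.011, MT1DP by 0.72, MT1HL1 by 0.68, MT4 by 0.63 and MT1H by 0.62. The means of MT4 (5.81 and 5.18) and MT1H (5.95 and 5.33) at 12 h and 24 h of Cis were low. They lay near or below the array medians of 5.71 to 5.94. The limit given above, that signal may be shared between similar metallothionein genes, holds here too. No gene of this list was called between 12 h and 24 h of Cis/TM, where 8.07% of all genes were called lower. There 5 of the list had an unadjusted limma p under 0.05, beside 6541 of the 18417 genes. The list median was -0.44.

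Among 9 zinc exporters of the SLC30 family other than SLC30A1, limma called 0 higher and 2 lower with Cis at 12 h (all genes, 14.8% and 10.8%). There 4 of the 9 had an unadjusted p under 0.05, all lower, beside 9785 of the 18417 genes in either direction. The exporters called were SLC30A9 by -0.89 (limma adjusted p = 4.36e-07) and SLC30A6 by -0.60 (limma adjusted p = 0.000613). SLC30A9 was also called lower with Cis/TM at 12 h (-0.74) and TM at 24 h (-0.59). SLC30A4, which moves zinc into vesicles, was called higher with Cis/TM at 12 h (0.61), Cis at 24 h (0.60) and Cis/TM at 24 h (0.70) and lower with TM at 12 h (-0.83) and 24 h (-1.05).

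Zinc importers of the SLC39 family numbered 14, of which 3 were called higher and 1 lower with Cis at 12 h (all genes, 14.8% and 10.8%). The counts at 12 h were 5 and 0 with TM (all genes, 8.99% and 3.11%) and 3 and 0 with Cis/TM (15.2% and 8.55%). At 24 h they were 2 and 2 with Cis (11.5% and 4.9%), 0 and 0 with TM (5.16% and 2.55%) and 0 and 1 with Cis/TM (4.54% and 2.48%). SLC39A7, which releases zinc from the endoplasmic reticulum, rose by 1.30 with Cis (limma adjusted p = 1.14e-07), 0.98 with Cis/TM and 0.65 with TM at 12 h. SLC39A1 rose by 0.80, 0.77 and 0.72 in the same order, and with Cis at 24 h both were still called, at 0.67 (SLC39A7) and 0.75 (SLC39A1). SLC39A13 rose by 0.82 with Cis and 0.64 with Cis/TM at 12 h, and SLC39A8 rose by 0.60 with TM at 12 h (limma adjusted p = 0.000374). SLC39A10, a plasma membrane importer that MTF1 is known to repress, fell with Cis by 0.76 at 12 h (limma adjusted p = 1.09e-05) and by 0.92 at 24 h (limma adjusted p = 3.37e-06), and with Cis/TM its differences of -0.47 and -0.49 were under the fold limit. SLC39A11 was called higher with TM at 12 h (1.10) and lower with Cis (-1.21) and Cis/TM (-0.94) at 24 h. With TM at 24 h, 4 members of the family had an unadjusted p under 0.05 in the limma fit, beside 6212 of the 18417 genes.

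Among 6 measured of 7 listed other genes linked to MTF1, SELENOW, which encodes a small selenoprotein, was called higher in all 6 comparisons with Control, from 0.76 with Cis/TM at 24 h (limma adjusted p = 0.00122) to 2.01 with Cis at 12 h (limma adjusted p = 1.86e-09). PGF, the placental growth factor gene, rose with Cis (0.76) and Cis/TM (0.67) at 12 h. SLC39A10, already described, was the only gene of this list called lower against Control. SELENOW was lower with Cis/TM than with Cis at 24 h by -0.72 (limma adjusted p = 0.013), fell by 1.09 between the times of Cis/TM, and had interaction values of -1.28 at 12 h and -1.54 at 24 h, both called. PGF fell by 0.61 between the times of Cis. Against Control the list median was 0.25 with Cis and 0.36 with Cis/TM at 12 h, against -0.01 and -0.05 over all genes. It was -0.13 with TM at 12 h, and 0.07 with Cis, 0.06 with TM and 0.10 with Cis/TM at 24 h. At 12 h the list had 2 genes called higher and 1 lower with Cis (all genes, 14.8% and 10.8%). With Cis/TM at 12 h it had 2 and 0 (all genes, 15.2% and 8.55%). GCLC, HAMP and SLC40A1 were not called against Control.

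Among 11 measured genes of import, export and delivery of copper, the metal that TM binds, 5 were called higher and 2 lower with Cis at 12 h. The shares of all genes there were 14.8% and 10.8%. At 12 h the counts were 4 and 2 with Cis/TM (all genes, 15.2% and 8.55%) and 1 and 0 with TM (8.99% and 3.11%). ATOX1, the copper chaperone that serves the copper pumps, rose by 1.51 with Cis (limma adjusted p = 2.02e-08), 1.43 with Cis/TM and 0.81 with TM at 12 h. ATP7A, a copper-exporting pump, fell by 1.76 with Cis (limma adjusted p = 2.42e-08) and by 1.53 with Cis/TM at 12 h, and with TM the difference was -0.39 (limma adjusted p = 0.11). At 24 h its mean was 7.36 with Cis, 7.51 with TM and 7.96 with Cis/TM, against 7.91 in Control. SCO1, a copper chaperone of cytochrome oxidase assembly, rose by 0.96 with Cis and 0.98 with Cis/TM at 12 h. COMMD1, a regulator of copper handling, fell with Cis and Cis/TM at 12 h (-0.91 and -1.005) and at 24 h (-1.50 and -1.40). At 24 h the counts were 1 higher and 1 lower with Cis (all genes, 11.5% and 4.9%). They were 1 and 0 with TM (5.16% and 2.55%) and 0 and 1 with Cis/TM (4.54% and 2.48%). ATOX1 was the gene that was higher, by 0.71 with Cis and 0.60 with TM.

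Genes that heavy metals induce outside the metallothioneins moved both ways. Of 12 measured, 5 were called higher and 2 lower with Cis at 12 h (all genes, 14.8% and 10.8%). The counts were again 5 and 2 with Cis/TM at 12 h (15.2% and 8.55%) and 2 and 2 with Cis at 24 h (11.5% and 4.9%). With TM at 12 h, TM at 24 h and Cis/TM at 24 h limma called 0, with 4, 5 and 5 genes at an unadjusted p under 0.05. Of the 18417 genes, 6943, 6212 and 6095 had such a p there, in the same order. The shares of all genes called in either direction were 12.1%, 7.72% and 7.02%. HSPA6, a heat shock gene, rose by 1.90 with Cis/TM and 1.54 with Cis at 12 h. SRXN1, which repairs oxidised peroxiredoxins, rose by 0.83 with Cis and 1.03 with Cis/TM at 12 h. SLC7A11, the cystine transporter gene, fell by 1.52 and 1.13, and TXNRD1, thioredoxin reductase, fell by 0.84 with Cis at 12 h. At 24 h of Cis these genes were still lower, SLC7A11 by -0.96 and TXNRD1 by -0.64. DNAJB1, a heat shock co-chaperone gene, rose by 1.13 with Cis/TM at 12 h and 0.76 with Cis at 24 h, and HMOX1, heme oxygenase, by 0.74 with Cis at 24 h. The mean of HMOX1 was higher still at 12 h, 8.09 with Cis and 8.10 with Cis/TM, against 7.89 with Cis at 24 h and 7.15 in Control. With Cis at 12 h DNAJB1 had a mean of 8.75, against 7.79 in Control. TXNRD1 had 10.39 with Cis/TM at 12 h, against 10.99 in Control. Among glucocorticoid target genes, listed because glucocorticoids also induce metallothioneins, 4 of 9 measured were called higher and 0 lower with Cis at 12 h. The counts were the same with Cis/TM at 12 h. The shares of all genes were 14.8% and 10.8% with Cis and 15.2% and 8.55% with Cis/TM. SGK1, a kinase gene, rose by 2.15 with Cis, 1.97 with Cis/TM and 0.72 with TM at 12 h, and DUSP1, a MAP kinase phosphatase gene, by 1.98, 2.002 and 1.54. NFKBIA, which encodes an inhibitor of NF-kappa B, rose by 0.99 with Cis and 0.87 with Cis/TM, and TSC22D3 by 1.10 and 0.88. With TM at 12 h 2 of the list were called higher (all genes, 8.99%). At 24 h 3 were with Cis (DUSP1 1.45, NFKBIA 1.27 and SGK1 0.74), 2 with TM (DUSP1 1.59 and SGK1 0.66) and 2 with Cis/TM (DUSP1 1.34 and NFKBIA 0.92). Of all genes, 11.5%, 5.16% and 4.54% were called higher in the same order.

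Across the 20 arrays the profile of MT1X was most like those of ZFAS1 (Pearson r = 0.966), TMED3 (0.959) and RPS23 (0.954), and that of SLC30A1 most like RNF7 and JUN (both 0.963) and RAE1 (0.962). MTF1 was most like BYSL (0.96), LSG1 and POLR3C (both 0.957), and MT2A most like ITGA3 (0.845), ANXA3 (0.838) and SYCE2 (0.834). These values describe the arrays, which share the 7 groups, and no test was made on them. With the group means removed, the correlation with MT1X was 0.669 for ZFAS1, -0.213 for TMED3 and 0.352 for RPS23, and that with SLC30A1 was 0.65 for RNF7, 0.709 for JUN and 0.544 for RAE1. For MTF1 it was 0.776 for BYSL, 0.733 for LSG1 and 0.846 for POLR3C, and for MT2A it was 0.0411 for ITGA3, 0.0708 for ANXA3 and -0.203 for SYCE2.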

How the data were processed

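RNA of 20 samples of MDA-MB-231 cells in 7 groups was measured on Affymetrix Human Gene 1.0 ST arrays. The authors normalised the raw intensities by RMA (affy package) and deposited log2 expression values for 33297 rows, of which 19460 carry 1 gene symbol in the platform annotation, 1754 several and the rest none. RMA brings the probe intensities of all arrays to a common distribution, so changes shared by most genes cannot be seen. The gene values used here still differed between arrays, with medians from 5.71 to 5.94 and SD over genes from 2.01 to 2.18. For each of the 18417 single-symbol genes the row with the highest mean was used. All 7 groups were fitted in 1 model with limma 3.58.1 (R 4.3.3), with 13 residual degrees of freedom, and p-values were adjusted by Benjamini-Hochberg over all genes of each of 17 contrasts. A call needed an adjusted p under 0.05 and a fold over 1.5. The study's methods name the same fold and a P, without saying whether it was adjusted.

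The members and the 7 gene lists were chosen with earlier results of these data known. All members are named, from each list up to 4 called genes per contrast with Control by smallest p, and for 4 members the 3 genes with the highest correlation over the 20 arrays. For HMOX1, DNAJB1, TXNRD1 and ATP7A further group means are given outside this rule. The labels number replicates by letters. Over 57 pairs of arrays with the same letter the residuals correlated by 0.00826 in the median (-0.423 to 0.613), so letters were not taken as pairs. Alternatives in scaling, filter, row choice, variance model, thresholds, block and single arrays left out were run. The steps were tested on simulated data. The number of arrays limits the precision.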

Additional observations from a re-analysis of the deposited data

Results flagged for a closer look

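Differences between the times under 1 treatment were singled out because the test of 24 h against 12 h itself passed. With Cis the log2 difference was -1.69 for MT1X, -1.35 for MT1E, -0.89 for MT1G, -0.88 for SLC30A1 and -0.83 for MT1F. With Cis/TM it was -1.68 for MT1E, -1.51 for MT1X, -0.80 for SLC30A1, -0.76 for MT1G, -0.69 for MTF1 and -0.67 for MT1F. The same step under TM called no member, but whether the time differences of Cis and TM differ from each other was not tested.

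Departures of Cis/TM from the sum of both single treatments were singled out because the interaction passed the test. They were -0.83 for MT1X, -0.70 for MTF1 and -0.59 for SLC30A1 at 12 h, and -0.86 for MTF1 at 24 h. The 12 h values of MTF1 and SLC30A1 lost their calls when single arrays were left out.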

How the results depend on the processing

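No value of a member changed direction with a call under the alternatives run. Of 32 calls over the 17 contrasts, 29 were kept when each array was centred on its median, 30 under quantile normalization and under removal of the trend with level, 32 under an unadjusted p, under a robust prior with a variance trend, under the mean of all rows of a gene and without the lowest 25% of genes (where 8 members were fitted), and 30 with only the groups of the contrast in the fit. The replicate block, with the letter as a factor, kept all 32 calls and added 0. Median centring moved the median over all genes to -0.158 with Cis at 12 h and to 0.141 in the 24 h interaction. The share of all calls that were higher moved from 57.8% to 39.7% with Cis at 12 h, from 33.3% to 52.4% in the 12 h and from 30.8% to 55.4% in the 24 h interaction, and for Cis/TM against Cis at 24 h from 30.3% to 53.1%. For Cis against TM at 24 h it moved from 62.2% to 48.7% under removal of the trend.

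The fold limit mattered most. With no fold minimum, the members called against Control were 7 of 9 with Cis (all genes, 47.3%) and 3 with TM (25.7%) at 12 h, and 4 with Cis (36.9%), 2 with TM (21.3%) and 6 with Cis/TM (19.4%) at 24 h. They were then 2 for Cis/TM against TM at 12 h (22%), 1 for Cis/TM against Cis at 24 h (3.76%), 2 for Cis/TM against TM at 24 h (13.5%) and 9 for Cis between the times (22.1%). With a fold over 2, 12 of the 32 calls remained. Against Control these were 2 with Cis (all genes, 10.7%), 3 with Cis/TM (9.01%) and 0 with TM (2.54%) at 12 h. At 24 h they were 0 with Cis (4.13%), 0 with TM (1.13%) and 1 with Cis/TM (1.24%). Against TM they were 0 for Cis/TM (4.55%) and 1 for Cis (6.45%) at 12 h. At 24 h they were 0 for Cis (2.1%) and 1 for Cis/TM (1.34%). Between the times 2 remained with Cis (2.32%) and 2 with Cis/TM (3.26%). The interaction kept 0 at 12 h (2.93%) and 0 at 24 h (4.98%).

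Under median centring, quantile normalization and removal of the trend, 2 members were called with Cis at 24 h in place of 1, MT1G being added. Under the same 3 scalings MT1F lost its call between the times of Cis/TM (-0.58, -0.53 and -0.51), and SLC30A1 that of the 12 h interaction (-0.49, -0.44 and -0.44). The 12 h interaction kept 1 member under median centring and with only the groups of the contrast in the fit, where MTF1 had adjusted p = 0.0617 and 0.0526 in limma. The cause was not tested. The other rows of MT2A, chosen after seeing the data, each gave 1 call more against Control, with Cis/TM at 24 h, and both were called between the times of Cis and of Cis/TM. The mean of all rows called MT2A with Cis/TM at 24 h (-0.59) and between the times of Cis/TM (-0.77), as did removal of the trend for the latter (-0.59).

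Leaving out 1 array at a time gave 3 to 5 members called with Cis at 12 h, 1 to 2 with TM at 12 h, 1 to 2 with Cis at 24 h, 1 to 2 for Cis/TM against TM at 12 h, 2 to 3 for Cis against TM at 12 h, 5 to 7 between the times of Cis/TM and 1 to 3 for the interaction at 12 h. The other counts were the same without any 1 array. Where TM 12 h was left with 1 array, that array was assumed to vary like the other groups.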
